A study of Rattus norvegicus with 8 samples.

Results

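The insulin-like growth factor (IGF) genes described here are Igf1, its receptor gene Igf1r, the receptor gene Igf2r, 6 genes named for IGF-binding proteins (Igfbp2 to Igfbp7) and Pappa, a protease gene of the same system. They were taken by name from a table of 37209 gene rows, which held all 10, and all 10 passed the filter on low counts and were tested among 15464 genes. The libraries came from veins of Sprague Dawley rats (an outbred strain) collected 1 week after surgery, with 4 grafts and 4 control jugular veins. A graft is a vein that was set into the divided left common carotid artery over cuffs and so carried arterial blood, whereas a control is the opposite jugular vein, left in the venous circulation. No genotype, drug, age or sex is given in the labels for either group, and they do not tie a graft to its own control. The main tests therefore took the libraries as independent, and a p-value sets the group difference against the spread between libraries within the groups.

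IGF1 is a secreted growth factor that promotes growth, survival and migration of vascular smooth muscle cells and fibroblasts through a receptor tyrosine kinase, the product of Igf1r. Binding proteins hold IGFs outside the cell, extend their life and keep them from the receptor. Proteases such as pappalysin, encoded by Pappa, cut some binding proteins and so free the growth factor. The product of Igf2r takes IGF2 up for degradation and carries enzymes marked with mannose 6-phosphate to the lysosome.

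Control libraries held 5981520 to 14267490 counts, the fewest in control 4, and graft libraries 10533451 to 16061189. On the scale used for levels, CPM (counts scaled to library sizes that TMM factors correct), 3 counts corresponded to 0.182 to 0.56 CPM. The labelled tissue was checked on marker genes, because the extraction protocol in the labels names a brain region. Summed levels of 8 smooth muscle genes were 14239 to 23640.2 CPM in controls and 1965 to 3751 CPM in grafts, while 6 neuronal genes summed to 1.03 to 3.88 CPM in all libraries and Neurod6 had no counts. Controls 3 and 4 stood apart from controls 1 and 2: 6 adipocyte genes summed to 1656 and 1973 CPM against 338 and 610 CPM, and 4 Schwann cell genes to 2026 and 1872 CPM against 119.7 and 169 CPM. In bulk tissue, fewer cells of a type and less RNA per cell cannot be told apart.

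Of the 10 genes, 1 rose in the grafts (Pappa), 4 fell (Igf1r, Igfbp3, Igfbp5 and Igfbp6) and 5 did not pass (Igf1, Igf2r, Igfbp2, Igfbp4 and Igfbp7), at a Benjamini-Hochberg adjusted p under 0.05 in the quasi-likelihood test of edgeR. Over all genes tested, 42.3% were called, with 21.0% up and 21.3% down, so 5 called of 10 is near that background. The median log2 fold change was 0.33 for these genes and 0.01 for all genes. The groups did not overlap for 5 of the 10 (Igf1r, Igfbp3, Igfbp5, Igfbp7 and Pappa), and for 40.6% of all genes. With library totals alone instead of TMM factors as the scale, the median of all genes was 0.23, and 67.8% of calls were rises instead of 49.7%. On that scale 3 of the 10 rose (Pappa, Igf2r and Igfbp7) and 3 fell, Igfbp6 being lost. Of all 15464 genes tested, 4558 rose and 2164 fell on it.

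**Figure D1:**
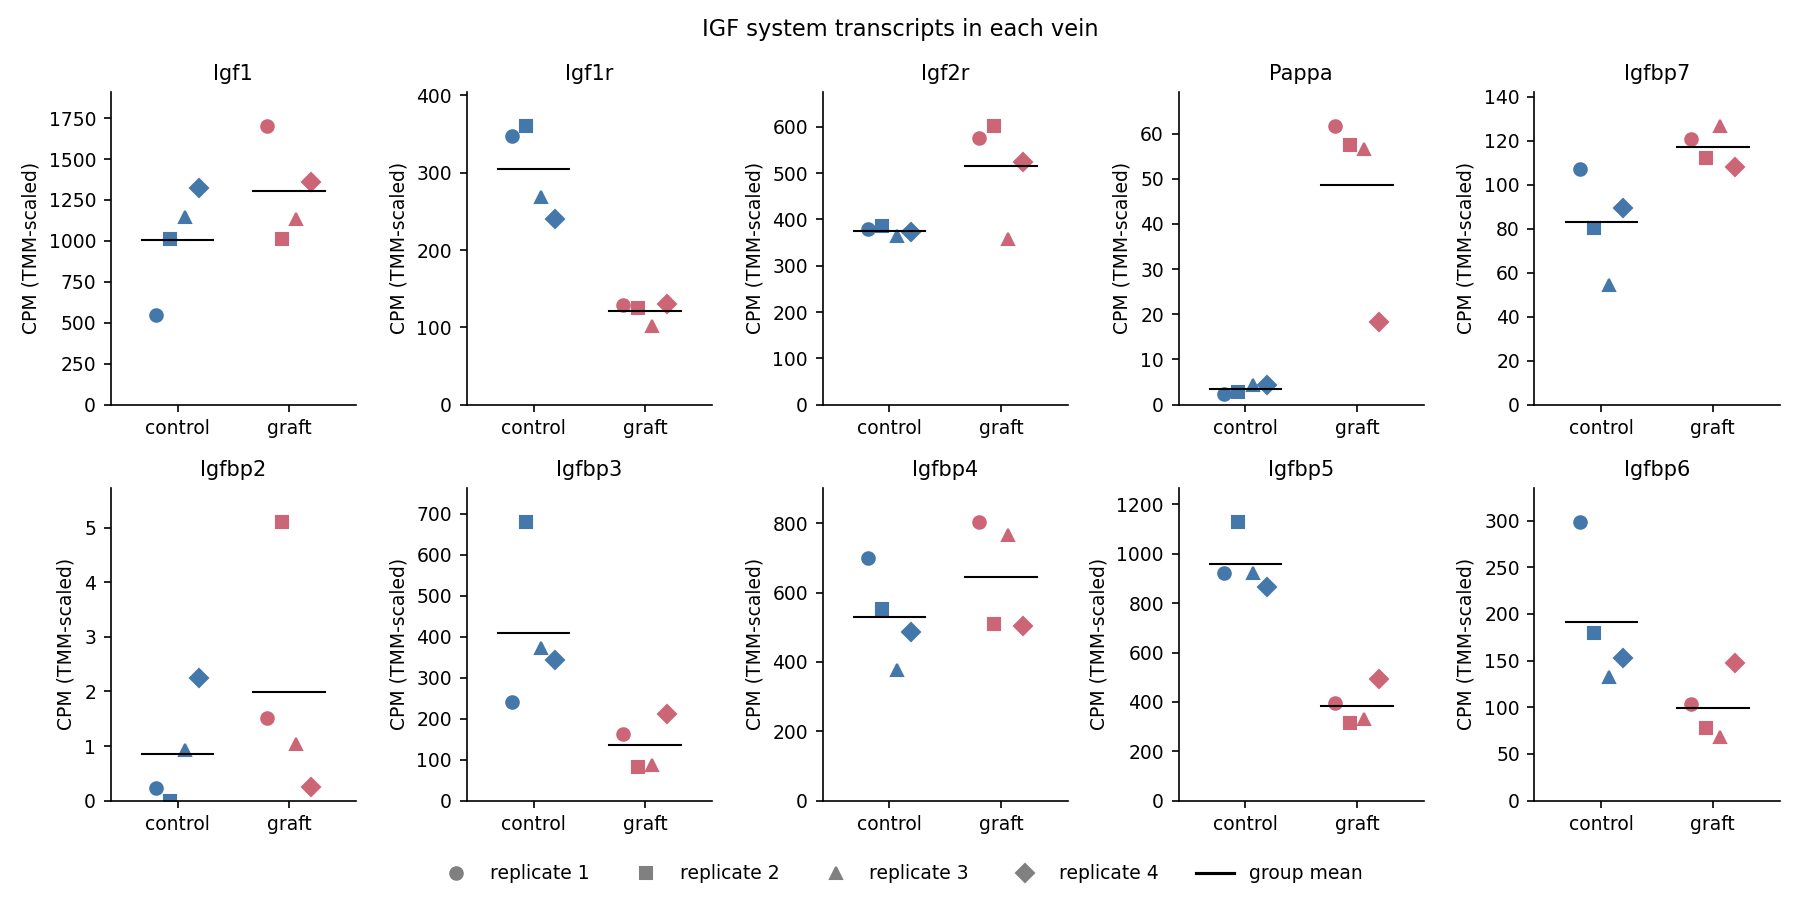
Level of each IGF system gene in CPM (vertical axes, linear and starting at 0) in the 4 control and 4 graft libraries, with 1 point per library, marker shape for the replicate number of the title and a line at the group mean. Pappa stands at 18.2 to 61.8 CPM in grafts against at most 4.35 CPM in controls, Igf1r lies lower in every graft, and Igf1 overlaps between the groups.

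The ligand gene Igf1 did not pass the test. It stood at 549, 1011, 1145 and 1325 CPM across controls 1 to 4, and at 1705, 1009.8, 1132 and 1362 CPM across grafts 1 to 4. Graft 1 was the highest and control 1 the lowest, and the other 6 libraries overlapped. The means were 1007 ± 331 CPM (SD, n = 4) in controls and 1302 ± 306 CPM (SD, n = 4) in grafts, for a log2 fold change (given ± SE throughout) of 0.37 ± 0.27 (edgeR adjusted p = 0.304). The 95% interval ran from a fold of 0.845 to one of 1.98. Without control 1 the log2 fold change was 0.17 (edgeR adjusted p = 0.526), and without controls 3 and 4 it was 0.74 (edgeR adjusted p = 0.121). Among the controls, Igf1 followed the order of the summed adipocyte genes, at 338, 610, 1656 and 1973 CPM, and in the grafts those genes summed to only 96.5 to 161 CPM. In the grafts 9 of 10 macrophage genes rose, against 21.0% of all genes tested. The 10 genes summed to 244 to 409 CPM in controls, and to 1111, 1516, 1519.5 and 1753 CPM across grafts 1 to 4. Igf1 was highest in graft 1, where that sum was lowest, and across the 4 grafts Igf1 did not follow the order of the sum. The part of either cell type in the Igf1 level was not tested.

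Igf2, the ligand that Igf2r clears, likewise did not pass. It ranged from 22.2 to 136 CPM in controls and from 26.8 to 147 CPM in grafts, with a log2 fold change of 0.03 ± 0.56 (edgeR adjusted p = 0.975).

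Igf1r, the receptor that carries the growth signal of IGF1, fell in the grafts. It stood at 348, 361, 269 and 240.2 CPM across controls 1 to 4, and at 129, 125, 102 and 130 CPM across grafts 1 to 4. Every graft was below every control, and the grafts lay within a narrow band. The means of 305 ± 59.2 CPM (SD, n = 4) and 121 ± 13.3 CPM (SD, n = 4) differed 2.51-fold, with a log2 fold change of -1.33 ± 0.16 (edgeR adjusted p = 0.000218). It was called under all 17 alternatives run, with log2 fold changes from -1.54 to -1.11.

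Igf2r, the receptor for IGF2 and mannose 6-phosphate, lay at the threshold. It stood at 379.6, 385, 364 and 373 CPM in controls 1 to 4, the tightest group of any of the 10 genes, and at 575, 603, 358 and 524 CPM across grafts 1 to 4. In 3 grafts it was above all controls, and graft 3 was below them all. The log2 fold change was 0.46 ± 0.17 (edgeR adjusted p = 0.0505). It passed with library totals alone (edgeR adjusted p = 0.00384), upper-quartile factors (0.0318), DESeq2 (0.0285) or without graft 3 (0.00308), and in none of the other 13 alternatives. M6pr, the smaller mannose 6-phosphate receptor, rose from 4.09 ± 0.149 to 7.01 ± 1.11 CPM (edgeR adjusted p = 0.0112), a call lost in thinned counts (edgeR adjusted p = 0.117).

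The 2 receptors thus stood in a different proportion in each group. The ratio of Igf2r to Igf1r counts within a library, which does not depend on scaling, was 1.09, 1.06, 1.35 and 1.55 across controls 1 to 4, against 4.46, 4.83, 3.52 and 4.03 across grafts 1 to 4. Because no gene lengths were used here, such a ratio is read between libraries only and does not say which gene has more transcripts. The ratio of Igf1 to Igf1r counts was 1.58, 2.8, 4.25 and 5.52 across the controls, against 13.2, 8.1, 11.1 and 10.5 across the grafts. All grafts were above all controls in both ratios, although Igf1 itself overlapped. Igf1r, the divisor of both, fell without overlap, so this separation is not a separate result about Igf1 or Igf2r.

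**Figure D2:**
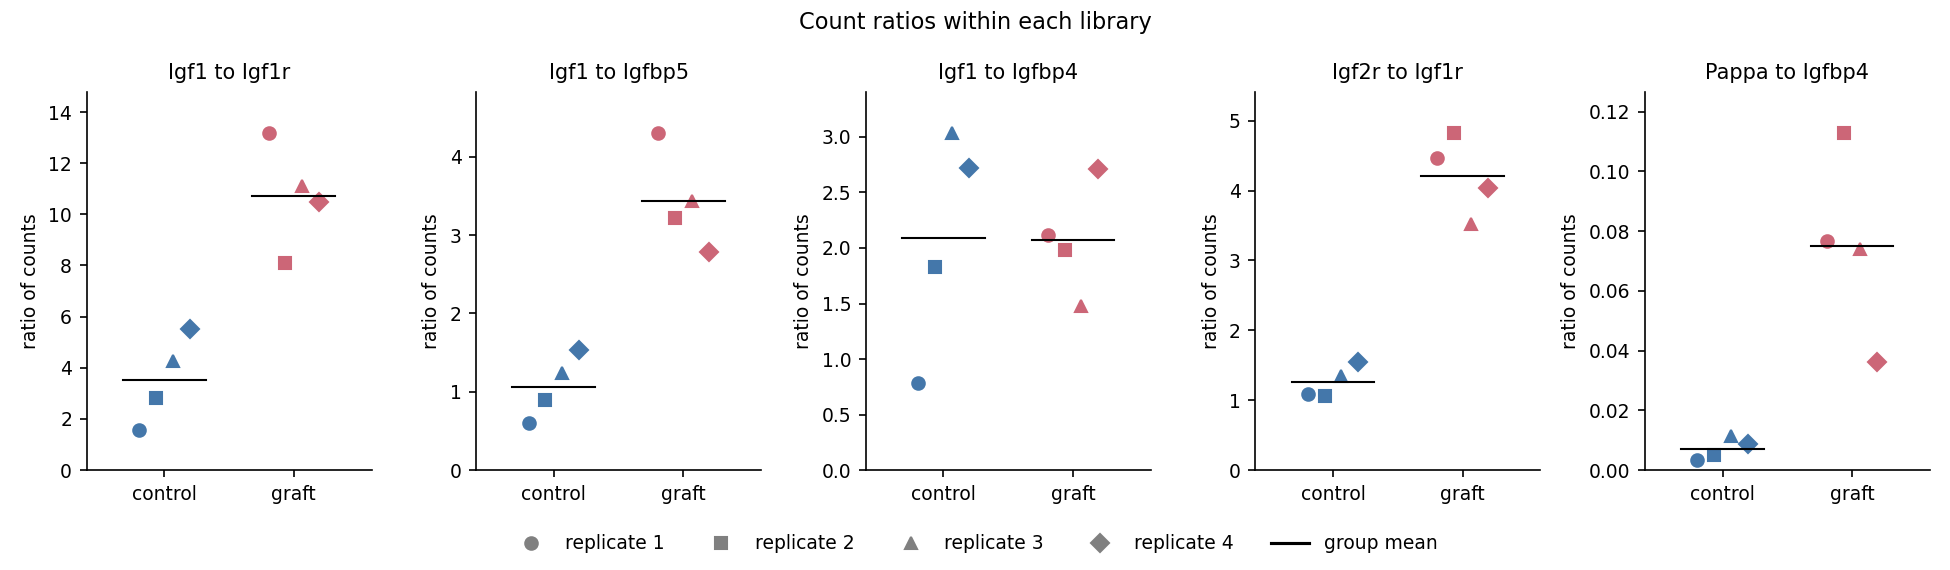
Ratios of the counts of 2 genes within each library (vertical axes, linear and starting at 0), with 1 point per library and a line at the group mean. Igf1 to Igf1r, Igf1 to Igfbp5, Igf2r to Igf1r and Pappa to Igfbp4 are higher in every graft, while Igf1 to Igfbp4 overlaps. The levels of Igf1r, Igfbp5 and Pappa do not overlap between the groups by themselves.

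Among binding proteins, Igfbp3, Igfbp5 and Igfbp6 fell, and Igfbp2, Igfbp4 and Igfbp7 did not pass. Igfbp5, whose product binds matrix and is made by smooth muscle cells, stood at 922, 1131, 923 and 864 CPM across controls 1 to 4, and at 396, 314, 329 and 491 CPM across grafts 1 to 4. The groups were wide apart, and the mean was 2.51-fold lower in grafts (960 ± 117 and 382 ± 80.6 CPM, SD, n = 4 each). Its log2 fold change was -1.33 ± 0.18 (edgeR adjusted p = 0.000363), the same as that of Igf1r to 2 decimals. Across the 8 libraries the centred log2 profiles of Igfbp5 and Igf1r differed by a root mean square of 0.191, the smallest value among the pairs of these genes. Genes outside this set came nearer to Igf1r, such as Exoc6b at 0.12 and Fam8a1 at 0.151.

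Igfbp3 encodes the main IGF carrier of blood plasma. It stood at 241, 681, 372 and 342 CPM across controls 1 to 4, and at 163, 83, 88.2 and 211 CPM across grafts 1 to 4. The groups did not overlap, but graft 4 came close to control 1, and control 2 was far above the other controls. The mean was 3-fold lower in grafts, with a log2 fold change of -1.58 ± 0.38 (edgeR adjusted p = 0.00887). Without control 2 it was -1.21 (edgeR adjusted p = 0.0244).

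Igfbp6, whose product binds IGF2 in preference to IGF1, stood at 299, 179.5, 132 and 153 CPM across controls 1 to 4, and at 103, 78.2, 67.7 and 147 CPM across grafts 1 to 4. Control 1 was the highest, and graft 4 lay within the range of the controls. The log2 fold change was -0.95 ± 0.30 (edgeR adjusted p = 0.0311). The call was lost in 6 of 17 alternatives: with library totals alone (edgeR adjusted p = 0.0688), without control 1 (0.0643) or control 2 (0.0582), and without graft 1 (0.0677), graft 2 (0.081) or graft 3 (0.0844).

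The falls of Igf1r, Igfbp3, Igfbp5 and Igfbp6 stood beside lower levels of several cell type markers. All 8 smooth muscle genes fell, with the sums given above, as did 4 of 6 endothelial genes, against 21.3% of all genes tested. The endothelial genes summed to 2777 to 4459 CPM in controls and 1115 to 1432 CPM in grafts. That sum was led by Vwf, with means of 2207 CPM in controls and 479 CPM in grafts. Cdh5 (233 and 198 CPM, edgeR adjusted p = 0.288) and Erg (88.9 and 73.6 CPM, 0.253) did not pass. All 6 adipocyte genes fell. Of 6 fibroblast genes 2 fell (Dcn and Col1a1) and 1 rose (Lum, from a mean of 837 to 2342 CPM). Pdgfra, Dpt and Pi16 did not pass. The sum of the fibroblast genes was 37896 to 74786 CPM in controls and 15769 to 37391 CPM in grafts. It was mostly Col1a1, with means of 47323 and 22636 CPM, and so does not stand for the other fibroblast genes. Defining markers of smooth muscle and endothelium were counted in all libraries. Their part in these falls was not tested.

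Igfbp4 encodes a binding protein that holds IGF1 from its receptor and is the best known substrate of pappalysin. It stood at 700.4, 553, 377 and 487 CPM across controls 1 to 4, and at 805, 509.6, 766 and 503 CPM across grafts 1 to 4. The groups overlapped, with a log2 fold change of 0.29 ± 0.23 (edgeR adjusted p = 0.348) and a 95% interval from a fold of 0.851 to one of 1.75. The interval of Igfbp4 thus did not include falls of the size measured for Igfbp3, Igfbp5 and Igfbp6.

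Igfbp7 encodes a protein that binds IGFs weakly and is common in vessel walls. It stood at 107, 80.5, 54.6 and 89.4 CPM across controls 1 to 4, and at 121, 112, 127 and 108 CPM across grafts 1 to 4. All grafts were above all controls, though graft 4 and control 1 nearly met. The log2 fold change was 0.50 ± 0.19 (edgeR adjusted p = 0.0564). It passed in 6 of 17 alternatives: library totals alone (edgeR adjusted p = 0.0122), upper-quartile factors (0.0403), DESeq2 (0.0402), limma voom (0.0441), thinned counts (0.0418) and without control 1 (0.0128).

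Igfbp2 was close to the limit of detection. It had 3, 0, 11 and 12 counts across controls 1 to 4, and 25, 68, 13 and 4 counts across grafts 1 to 4. Graft 2 held most of the graft counts, at 5.11 CPM, and the other 3 grafts, at 0.257 to 1.52 CPM, were within the range of the controls. The log2 fold change of 1.41 ± 1.06 (edgeR adjusted p = 0.313) was 0.33 without graft 2 and 3.89 without controls 3 and 4 (edgeR adjusted p = 0.828 and 0.0862). Igfbp1, the binding protein of liver, had 1 count in graft 2 and none in the other libraries. In the GRCr8 assembly, Igfbp2 is the protein-coding neighbour of Igfbp5 and Igfbp1 that of Igfbp3, so in both neighbouring pairs 1 gene was near or below detection and the other fell.

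**Figure D3:**
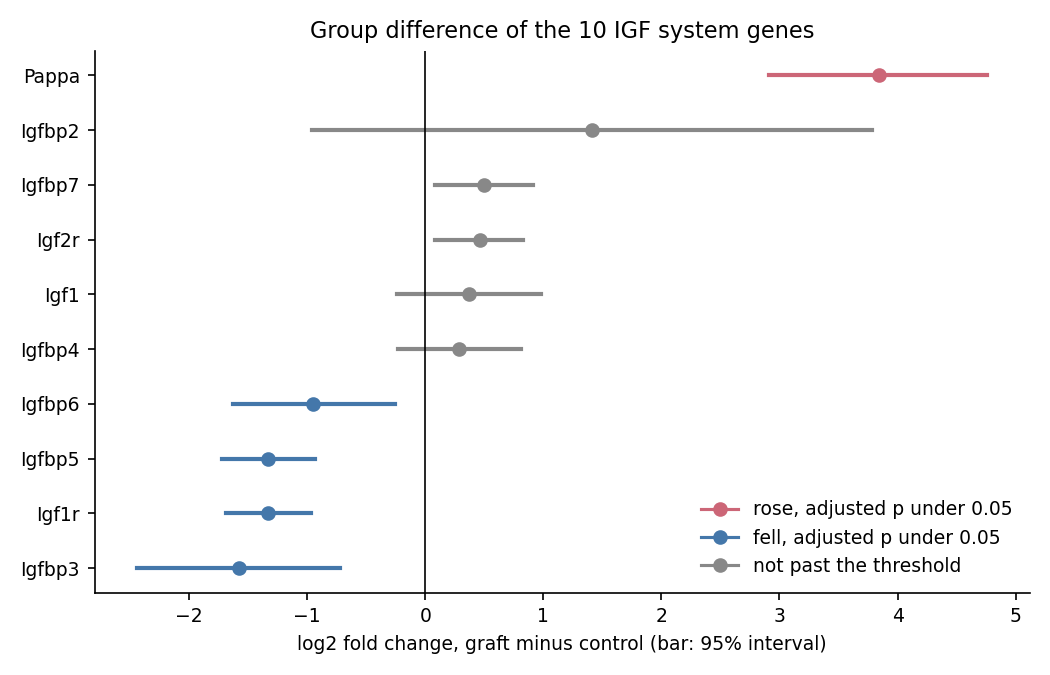
Log2 fold change of each IGF system gene, graft minus control (horizontal axis), with bars for the 95% interval and colour for the edgeR call at an adjusted p under 0.05. Pappa is far to the right at 3.84, 4 genes lie below 0, and the widest bar is that of Igfbp2.

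The make-up of the binding protein counts differed between the groups. Of all counts on Igfbp2 to Igfbp6, Igfbp5 held 42.6%, 44.4%, 51.1% and 46.8% across controls 1 to 4, against 27%, 31.7%, 26.3% and 36.3% across grafts 1 to 4. Igfbp4 held 32.4%, 21.7%, 20.9% and 26.4% of them across the controls, against 54.9%, 51.5%, 61.2% and 37.2% across the grafts. Igfbp5 thus had the most counts in every control and Igfbp4 in every graft, though by little in graft 4 (7832 against 7642 counts). Neither share overlapped between the groups. Without gene lengths this order does not say which gene has more transcripts. The level of Igfbp4 itself did not pass, as given above. Igfbp3 averaged 19.2% ± 6.45 (SD, n = 4) in controls and 10.5% ± 3.78 in grafts, and Igfbp6 9.11% ± 3.18 and 7.8% ± 2.31, both with overlap. Summed over these 5 genes, the level was 1804 to 2545 CPM in controls and 989 to 1468 CPM in grafts. The ratio of Igf1 to Igfbp5 counts was 0.596 to 1.53 in controls and 2.78 to 4.31 in grafts, and that of Igf1 to Igfbp3 was 1.48 to 3.88 and 6.45 to 12.8. The ratio of Igf1 to Igfbp4 overlapped, at 0.784 to 3.04 and 1.48 to 2.71. Igfbp5 and Igfbp3 fell without overlap themselves, so the ratios to them are not a separate result about Igf1.

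**Figure D4:**
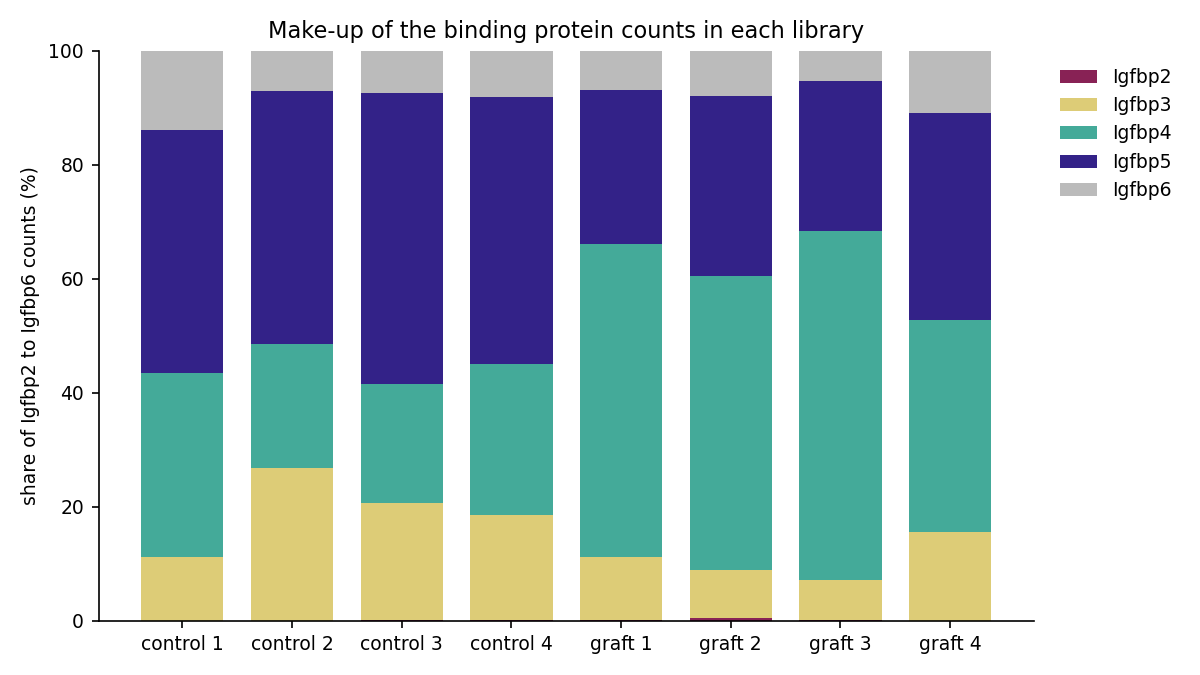
Share of each gene in the counts on Igfbp2 to Igfbp6 (vertical axis, percent) in each library, stacked to 100%. Igfbp4 holds 37.2% to 61.2% in the grafts against 20.9% to 32.4% in the controls, and Igfbp5 shows the opposite order.

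Upstream sequence is shown for Igfbp3 and Igfbp6, which fell, and Igfbp4, which did not pass, so that genes of 1 family with unlike behaviour can be compared. RefSeq's GRCr8 promoter table held 9 of the 10 genes, all but Pappa. The 250 bases before each start are given 5′ to 3′ on the strand of the gene: Igfbp3 at chr14:86277945-86278194 (minus strand), Igfbp4 at chr10:84491221-84491470 (plus strand) and Igfbp6 at chr7:135154669-135154918 (plus strand). Capitals mark any match, on either strand, to 5 motifs: the GC box GGGCGG, the TATA box TATAAA, the CCAAT box CCAAT, the STAT site TTCNNNGAA and the FOXO site GTAAACA.
Igfbp3: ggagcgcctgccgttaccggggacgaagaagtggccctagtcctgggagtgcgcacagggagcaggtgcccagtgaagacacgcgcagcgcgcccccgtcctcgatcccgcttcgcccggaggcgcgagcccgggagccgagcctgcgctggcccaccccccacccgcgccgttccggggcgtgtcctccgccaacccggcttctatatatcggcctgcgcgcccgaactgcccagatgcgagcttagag
Igfbp4: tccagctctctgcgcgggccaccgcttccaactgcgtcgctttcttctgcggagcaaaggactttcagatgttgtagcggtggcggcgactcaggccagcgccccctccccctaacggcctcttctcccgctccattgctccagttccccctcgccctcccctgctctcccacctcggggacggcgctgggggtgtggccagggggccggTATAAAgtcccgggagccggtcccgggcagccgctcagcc
Igfbp6: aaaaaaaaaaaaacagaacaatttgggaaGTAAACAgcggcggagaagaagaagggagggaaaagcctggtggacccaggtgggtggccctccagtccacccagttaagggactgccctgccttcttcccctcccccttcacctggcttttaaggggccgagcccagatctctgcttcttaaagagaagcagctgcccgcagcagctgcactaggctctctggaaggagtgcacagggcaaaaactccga
Igfbp4 had 1 TATA box, beginning 40 bases before the start, and Igfbp6 had 1 FOXO site, beginning 221 bases before it, and the motifs printed in capitals do not overlap each other. Igfbp3 had no match, though it was rich in G and C (71.6%, against a median of 51.2% over 33465 promoters). Neither had the window of Igfbp5, which also fell and is not printed. The share of G and C was 68.8% for Igfbp4, 54.8% for Igfbp6 and 51.6% for Igfbp5. It was higher than in Igfbp3 for Igf1r (79.6%) and Igfbp7 (74.4%), so it was not particular to Igfbp3. The TATA box was present in 12.9% and the FOXO site in 3.22% of the same windows of all promoters. Of the 9 windows, 4 held the GC box, against 30.5% of all promoters, and none held the CCAAT box or the STAT site, against 34% and 7.67%. Starts of Igf1, Igf1r and Igfbp7 in this table differ from the gene starts of the RefSeq annotation, so their windows may belong to another start. The search took exact letters only, so variants such as the tatatat in the Igfbp3 window were not counted. A match is a description of the letters and not a site in use.

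Pappa had the largest change of these genes. It stood at 2.32, 2.79, 4.35 and 4.29 CPM in controls 1 to 4, from 31, 28, 52 and 23 counts, and at 61.8, 57.5, 56.7 and 18.2 CPM across grafts 1 to 4. All grafts were above all controls, and graft 4 was far below the other 3. The means of 3.44 ± 1.04 and 48.5 ± 20.4 CPM (SD, n = 4 each) differed 14.1-fold, with a log2 fold change of 3.84 ± 0.41 (edgeR adjusted p = 0.000119). Only 2.52% of all genes tested had a larger absolute log2 fold change. Without graft 4 the value was 4.12 and without control 1 it was 3.68. The ratio of Pappa to Igfbp4 counts was 0.00332 to 0.0115 in controls and 0.0361 to 0.113 in grafts, and that of Pappa to Igfbp5 was 0.00247 to 0.00497 and 0.037 to 0.183. Pappa did not overlap between the groups by itself, so these ratios are not a separate result.

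Beyond the 10 genes, a list of 18 genes that govern the supply and release of IGFs was examined, of which 17 were in the table and 13 were tested. Of these, 5 rose, 4 fell and 4 did not pass. Over all genes tested, 21.0% rose and 21.3% fell. The median log2 fold change of the list was 0.28. Igfals, Igfbp1, Igfbpl1 and Adam28 had too few counts to be tested, Adam28 having none, and Pappa2 was not matched. Stc1, which encodes the pappalysin inhibitor stanniocalcin-1, fell from 48.4, 83.1, 95.7 and 55.8 CPM in controls 1 to 4 to 8.25, 8.41, 6.16 and 9.12 CPM across grafts 1 to 4. Its log2 fold change was -3.14 ± 0.25 (edgeR adjusted p = 3.18e-05). Stc2, the related inhibitor, named after its value was seen, stood at 1.76 ± 0.539 CPM in controls and 5.29 ± 4.89 CPM in grafts and did not pass (log2 fold change 1.56 ± 0.60, edgeR adjusted p = 0.0604). Adam12, a membrane protease that cuts Igfbp3 and Igfbp5 products, rose from 56.3 ± 18 to 657 ± 195 CPM (SD, n = 4), a log2 fold change of 3.54 ± 0.29 (edgeR adjusted p = 3.47e-05). Furin, a convertase that matures growth factor and receptor precursors, rose from 84.2 ± 21.1 to 205 ± 13.5 CPM (edgeR adjusted p = 0.000356).

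Genes of growth hormone signalling, which drives Igf1 transcription in liver and other tissues, moved in both directions. Ghr, the growth hormone receptor, stood at 146, 201, 402 and 471 CPM across controls 1 to 4, and at 54.7, 41.6, 34.6 and 40.3 CPM across grafts 1 to 4. Every graft was below every control, and controls 3 and 4 were the highest, as they were for the summed adipocyte genes, whose part was not tested. The log2 fold change of Ghr was -2.83 ± 0.36 (edgeR adjusted p = 0.000311), and without controls 3 and 4 it was -2.01 (edgeR adjusted p = 0.000695). The transcription factor gene Stat5b fell by 0.70 on the log2 scale and Socs2, its target and a feedback inhibitor, fell by 0.83 (edgeR adjusted p = 0.00205 and 0.00731). The kinase gene Jak2 rose by 0.74 and Stat5a, named after its value was seen, by 0.46 (edgeR adjusted p = 0.00416 and 0.0285). Igf1 did not pass in tissue where Ghr, Stat5b and Socs2 fell and Jak2 and Stat5a rose. A link between these genes and the Igf1 level was not tested.

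In a list of 28 genes that carry the insulin and IGF1 signal inside the cell, 13 fell, 5 rose and 10 did not pass, and the median log2 fold change was -0.28. Of all genes tested, 21.3% fell. Insr, the insulin receptor, which forms hybrids with the IGF1 receptor, went from 261, 294, 254 and 225 CPM in controls 1 to 4 to 92.7, 92.4, 94.9 and 104 CPM across grafts 1 to 4. The groups were wide apart, and its log2 fold change of -1.43 ± 0.11 (edgeR adjusted p = 3.26e-05) was close to that of Igf1r. Irs1, the adaptor that both receptors phosphorylate, fell from 170 ± 17 to 79.1 ± 12.9 CPM (edgeR adjusted p = 0.000263), and the related Irs2 from 60.6 ± 7.81 to 45 ± 1.87 CPM (edgeR adjusted p = 0.0172). The Irs2 call was lost with library totals alone (edgeR adjusted p = 0.241), without controls 3 and 4 (0.112), without control 2 (0.056) or without graft 2 (0.0548).

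Further along the pathway, Pik3ca, a catalytic subunit of phosphoinositide 3-kinase, fell from 141 ± 3.8 to 89.5 ± 2.18 CPM (edgeR adjusted p = 0.000417). Foxo1, a transcription factor that insulin and IGF1 signals hold out of the nucleus, fell from 107 ± 13.8 to 50.4 ± 1.81 CPM (edgeR adjusted p = 0.000128). Shc1, the adaptor that links the receptors to Ras, rose from 122 ± 24.9 to 295 ± 18.9 CPM (edgeR adjusted p = 0.000199). Pik3cb, another catalytic subunit, rose by 1.39, Akt1 by 0.53 and Tsc2 by 0.72 as log2 fold changes (edgeR adjusted p = 0.00233, 0.00887 and 0.0111). Without controls 3 and 4, and so with fewer libraries to test, 7 genes of this list fell and 2 rose. Akt1 (edgeR adjusted p = 0.0888) and Tsc2 (0.0901) were among the calls lost. The share of all genes called without controls 3 and 4 is not given here. With library totals alone 9 fell and 9 rose, while of all 15464 genes tested 2164 fell and 4558 rose on that scale.

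**Figure D5:**
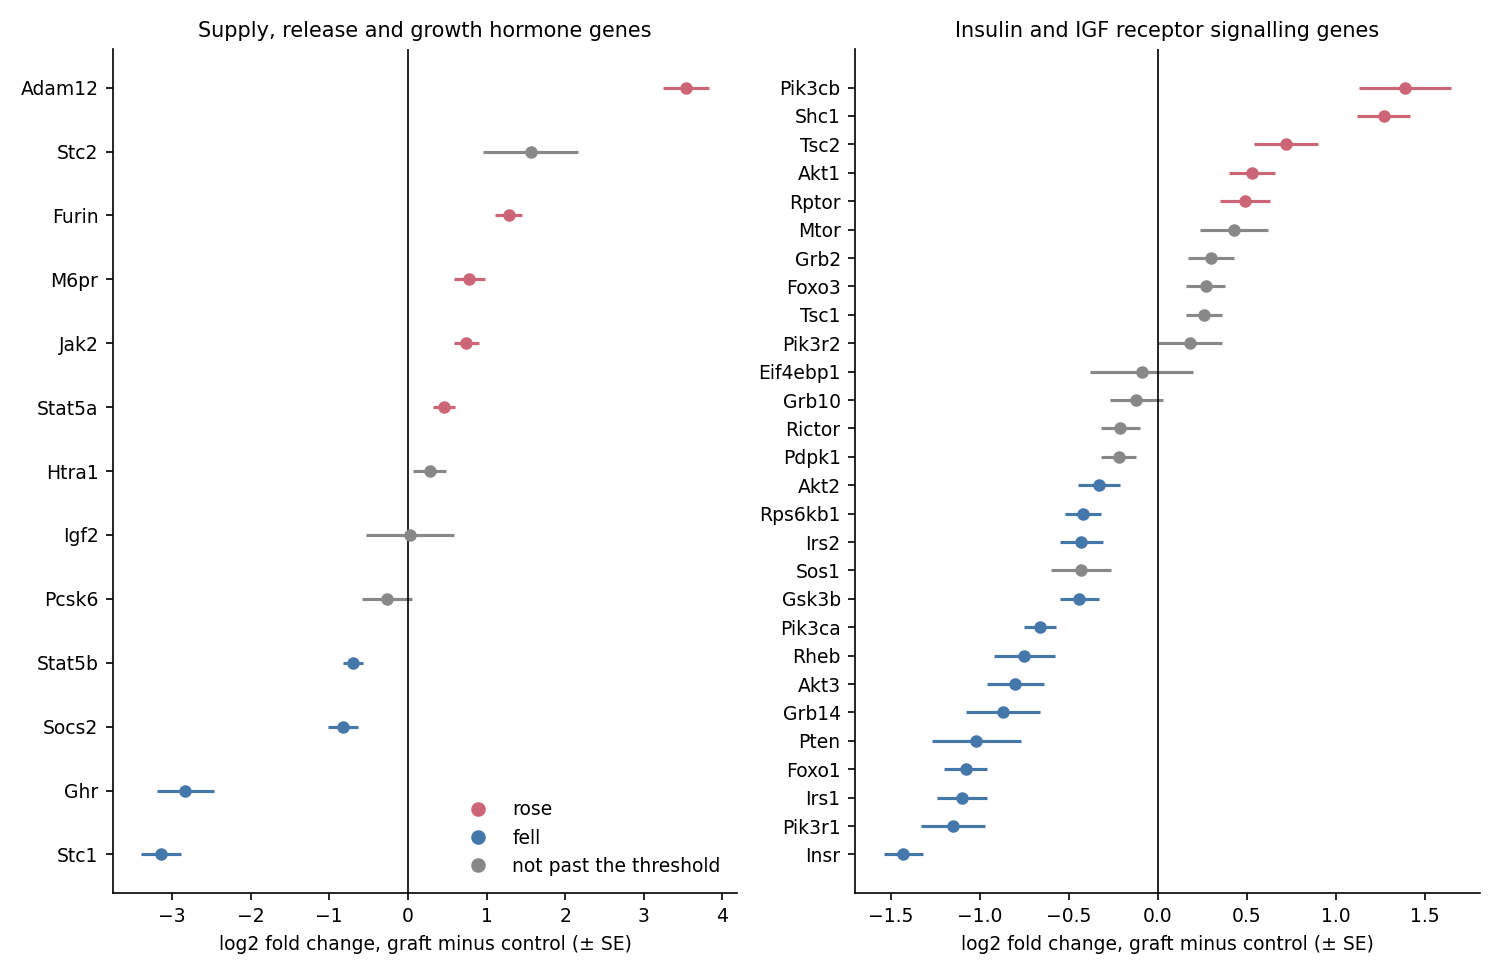
Log2 fold change, graft minus control (horizontal axes, with bars for ± SE), of the 13 tested supply and growth hormone genes on the left and the 28 signalling genes on the right, coloured by the edgeR call. Stc1 and Ghr lie lowest and Adam12 highest on the left, and Insr lies lowest on the right.

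Genes with a profile most like that of Igf1 and of Igf1r were ranked by the root mean square difference of log2 CPM centred on each gene's own mean over the 8 libraries, among 10516 genes with a mean of at least 5 CPM. Nearest to Igf1 were Pak3 (0.177), Tspan15 (0.192), Kit (0.204), Avpr1a (0.217) and Adam23 (0.232). Their means went from 12.5 to 17.4 CPM for Pak3, from 52.3 to 73.7 CPM for Adam23 and from 32.7 to 39.7 CPM for Kit, the stem cell factor receptor. Nearest to Igf1r were Exoc6b (0.12), Sulf1 (0.128), Ptpla (0.13), Gem (0.146) and Fam8a1 (0.151). Sulf1, which trims sulfate groups from heparan sulfate, had means of 434 and 175 CPM. These distances describe 8 libraries in 2 groups.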

How the data were processed

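Total RNA of 8 veins was sequenced on Illumina libraries, per the labels' protocols. The submitters' processing notes name HISAT2 2.0.4 and the assembly Rnor_6.0, whereas the sources used here do not name the read counter, annotation release or strand setting. Without a stated strand setting, a gene and an antisense partner share reads that cannot be told apart. The authors deposited whole-number counts of reads per gene, with no normalization found in the values. Groups come from the sample titles. All within-group library pairs differed beyond sampling noise.

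The test was run with edgeR 4.0.16 in R 4.3.3 (filterByExpr at a minimum count of 10, TMM factors, glmQLFit and glmQLFTest, Benjamini-Hochberg over 15464 genes, threshold 0.05). Standard errors are the absolute log2 fold change over the square root of F, and intervals use the test's degrees of freedom. Log2 CPM had a prior count of 2. The procedure was tested on simulated data. Alternatives used DESeq2 1.42.0, limma 3.58.1 voom, other scalings and filters, thinned counts and left-out libraries.

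The 10 genes and the lists were chosen with earlier results of these data known. Text names all 10 genes, up to 4 members per direction and list by p, fixed ligands, receptors and adaptors, and the 5 nearest profiles (provisional names left out). Emr1 was used as the older name of Adgre1. Of the cell type lists not described above, T cell genes summed to 0.56 to 4.94 CPM in controls and 15.9 to 36.2 CPM in grafts, skeletal muscle genes to 25.3 to 1295 and 31.1 to 439 CPM, and hepatocyte genes to 5.98 to 19.8 and 0.193 to 0.607 CPM.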

Additional observations from a re-analysis of the deposited data

Results flagged for a closer look

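In 3 of 56 groups of 4 libraries examined (28 genes, control and graft), 1 library lay far from the other 3 by Dixon's criterion, and chance flags about 1 in 20 groups. Pappa in graft 4 stood at 18.2 CPM against 56.7 to 61.8 CPM in the other grafts. Akt1 in graft 1 stood at 237 CPM against 199.6 to 203 CPM. Pik3ca in graft 2 stood at 86.2 CPM against 90.4 to 90.8 CPM, a small gap in a group with little spread.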

How the results depend on the processing

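Each of the 10 genes was refitted under 17 alternatives, and none of the 169 values obtained changed sign. Igfbp2 could not be fitted in thinned counts, where it did not pass the filter. Igf1r, Igfbp3, Igfbp5 and Pappa were called in all 17, and Igf1, Igfbp2 and Igfbp4 in none of those fitted. The number of the 10 that rose (1) was 3 with library totals alone, upper-quartile factors or DESeq2, 2 with limma voom or thinned counts, and 1 to 2 with 1 library left out (2 without control 1 or graft 3). The number that fell (4) was 3 or 4 throughout. Supply genes that rose (5) numbered 3 in thinned counts. Signalling genes that rose (5) numbered 9 with library totals alone, 8 with upper-quartile factors and 2 without controls 3 and 4, a setting that also took those that fell from 13 to 7. That setting leaves fewer libraries to test. At an unadjusted edgeR p under 0.05, 14 signalling genes fell and 9 rose in the main fit, against 13 and 5 without controls 3 and 4. The causes of these shifts were not tested. The titles number both groups 1 to 4, but the source names number the grafts differently. Deviations from the group means correlated at -0.075 to 0.18 between libraries of the same number, and 1 of 4 controls correlated best with its own number. With the replicate number as a block, 1 of the 10 genes rose and 4 fell, 4 supply genes rose and 4 fell, and 5 signalling genes rose and 12 fell, and 5902 in place of 6538 of all genes were called. Levels near 3 counts, as for Igfbp1 and Igfbp2, limit what can be said of those genes.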
